A study of Mus musculus with 7 samples.

Results

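The contents of the cytotoxic granule were described by 10 genes: the granzymes Gzma, Gzmb, Gzmc, Gzmk and Gzmm, the pore-forming protein gene Prf1, the granule proteoglycan gene Srgn, the protease gene Ctsw, and the protease inhibitor genes Cst7 and Serpinb9. They were chosen by symbol among the 53379 genes of the count table, and each of the 10 matched a single gene. The libraries hold RNA of splenic natural killer (NK) cells from C57BL/6 mice, sorted directly ex vivo as viable CD45+ CD3- cells positive for NK1.1, NKp46 and CD49b. There were 4 libraries of the genotype Hhex KO, a knockout of the homeobox transcription factor gene Hhex, and 3 libraries of the genotype Cre control, named for the Cre recombinase. The labels name no treatment. For the Cre driver, the deleted part of Hhex, the age of the mice and any pooling of animals, nothing is given in the sources used here. The comparison asks how the RNA of the granule contents differs between NK cells labelled Hhex KO and NK cells labelled Cre control.

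NK cells kill by releasing preformed granules at the contact with a target cell. Perforin opens the membrane, and granzymes, serine proteases that enter through it, cleave proteins of the target and start its death. Serglycin, a proteoglycan with long sulfated sugar chains, holds the positively charged granzymes and perforin inside the granule. Progranzymes are activated by the cysteine protease cathepsin C, which cystatin F (the product of Cst7) can inhibit, and Serpinb9 protects the killer cell from its own granzyme B. In mouse NK cells granzyme A, granzyme B and perforin are the classical products of mature cells, whereas granzyme K is known from immature NK cells and from subsets of T cells.

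The sequences before the transcription start are given for the members called in the comparison below, Gzmk and Cst7, and for Gzma and Gzmb, the most abundant granzyme genes. RefSeq promoters (assembly GRCm38.p6, the build of the count table) were found for 9 of the 10 genes, in 11 windows, and the 250 bases upstream of the start are given 5′ to 3′ on the strand of the gene. They are chr13:113180966-113181215 (minus strand) for Gzmk, chr13:113100982-113101231 (minus) for Gzma, chr14:56262335-56262584 (minus) for Gzmb and chr2:150570165-150570414 (plus) for Cst7. The Gzmk window lies inside the annotated gene, which spans 113171608 to 113225908. The start used is 44 bases from the nearest annotated start, and the outermost start lies further upstream. Capitals mark the core motif of RUNX factors, TGTGGT, or ACCACA where it lies on the other strand.
Gzmk: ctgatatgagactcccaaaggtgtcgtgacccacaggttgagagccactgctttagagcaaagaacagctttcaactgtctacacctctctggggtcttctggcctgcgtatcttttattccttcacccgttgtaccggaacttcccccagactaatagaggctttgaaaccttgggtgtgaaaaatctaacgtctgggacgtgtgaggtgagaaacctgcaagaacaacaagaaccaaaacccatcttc
Gzma: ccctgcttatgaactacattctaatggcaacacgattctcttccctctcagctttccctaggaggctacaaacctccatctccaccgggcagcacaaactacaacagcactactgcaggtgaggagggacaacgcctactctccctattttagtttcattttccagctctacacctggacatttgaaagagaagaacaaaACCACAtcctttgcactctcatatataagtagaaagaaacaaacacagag
Gzmb: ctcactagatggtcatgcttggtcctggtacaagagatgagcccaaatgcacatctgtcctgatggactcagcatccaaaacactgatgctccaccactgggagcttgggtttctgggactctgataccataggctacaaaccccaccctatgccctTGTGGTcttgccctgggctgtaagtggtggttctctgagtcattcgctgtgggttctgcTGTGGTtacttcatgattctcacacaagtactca
Cst7: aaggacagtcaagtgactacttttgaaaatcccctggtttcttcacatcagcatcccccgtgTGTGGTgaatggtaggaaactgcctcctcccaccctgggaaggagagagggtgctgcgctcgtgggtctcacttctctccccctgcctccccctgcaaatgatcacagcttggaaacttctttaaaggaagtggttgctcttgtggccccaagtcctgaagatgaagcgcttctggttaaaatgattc
TGTGGT was present in 7 of the 11 windows, which belong to 7 of the 9 genes (Gzma, Gzmb, Gzmc, Gzmm, Prf1, Srgn and Cst7), against 14.0% of 32851 promoter windows of the same length. It was not in the windows of Gzmk and Serpinb9. Of the other 4 motifs searched on both strands, ATTAA, a homeodomain core, was in the window of Serpinb9 alone (24.9% of all windows), TGANTCA, the AP-1 site, in that of Gzmb alone (6.75%), TTCNNNGAA, the STAT core, in that of Gzmm alone (7.02%), and the T-box site AGGTGTGA in 0 of the 11 (1.12%). Such matches are letters in a window and do not show binding.

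Total counts ranged from 10589915 to 18456404 per library. The targeted gene, Hhex (ENSMUSG00000024986.11), was at 93.5 to 96.1 CPM (counts per 1000000 counts of the scaled library size) in Cre control and at 54.2 to 64.8 CPM in Hhex KO, lower in each of the 4 Hhex KO libraries but still read. Which exons are deleted is not stated in the sources used here, and reads from other exons do not check the genotype. All 8 markers of NK cells (Ncr1, Klrb1c, Itga2, Eomes, Klrd1, Klrk1, Tyrobp and Ptprc) were tested and 0 passed, with a summed level of 11089 to 12037 CPM in the controls against 9591 to 11193 CPM in Hhex KO. The Hhex KO libraries were not alike: replicates 1 and 4 held the nuclear RNAs Malat1 and Neat1 at a summed 1045 to 1110 CPM and replicates 2 and 3 at 173 to 198 CPM, with 311 to 798 CPM in Cre control. Neutrophil markers summed to 335 CPM in Hhex KO replicate 2, against 11.3 to 58.7 CPM in the remaining libraries of that genotype and 16.3 to 41.8 CPM in Cre control. The labels number 6 libraries between 20 and 28 but give Hhex KO replicate 4 the number 95; whether it was prepared apart from them is not stated. Without it, Gzmk (log2 fold change 2.74, adjusted p = 0.000535, edgeR) and Cst7 (-0.74, adjusted p = 0.0306, edgeR) were called as with it, and 527 genes in place of 326 were called higher. Below, a log2 fold change compares Hhex KO to Cre control and is given ± its standard error. The quasi-likelihood test of edgeR gave the p-values, adjusted by Benjamini and Hochberg's method over 12161 tested genes, and a gene is called where the adjusted p is below 0.05.

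The 10 genes together took 1.35% ± 0.209 of all counts in Cre control (SD, n = 3) and 1.06% ± 0.137 in Hhex KO (SD, n = 4), and the groups overlapped, at 1.14% to 1.55% and 0.877% to 1.19%. Gzma alone made up 59.3% ± 2.52 of these counts in Cre control (SD, n = 3) and 59.5% ± 3.20 in Hhex KO (SD, n = 4). Per length of exon, Gzma ranked 1 among all tested genes in both groups, at 8015 ± 1611 CPM per kb in Cre control (SD, n = 3) and 6297 ± 1081 in Hhex KO (SD, n = 4).

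The order of the 10 genes by level per length was the same at the top in both groups and differed further down. In Cre control Gzma was followed by Prf1 (872 ± 96.4 CPM per kb; SD, n = 3) and Gzmb (788 ± 92.6), which overlapped each other, then by Ctsw (400 ± 12.0). Cst7 (252 ± 29.7) overlapped Serpinb9 (189 ± 32.7), and Serpinb9 overlapped Srgn (182 ± 18.3). A wide step separated these 7 from Gzmm (16.2 ± 1.64), Gzmk (3.78 ± 0.192) and Gzmc (2.06 ± 0.297), none of whose ranges met. In Hhex KO the ranges of Gzmk (24.7 ± 5.01 CPM per kb; SD, n = 4) and Gzmm (21.9 ± 6.46) overlapped, and Srgn (202 ± 32.1) lay wholly above Serpinb9 (148 ± 11.8). The range of Cst7 (144 ± 26.8) overlapped those of both Srgn and Serpinb9. Gzmk thus went from rank 7500 to rank 2172 among the tested genes by mean level per length.

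**Figure D1:**
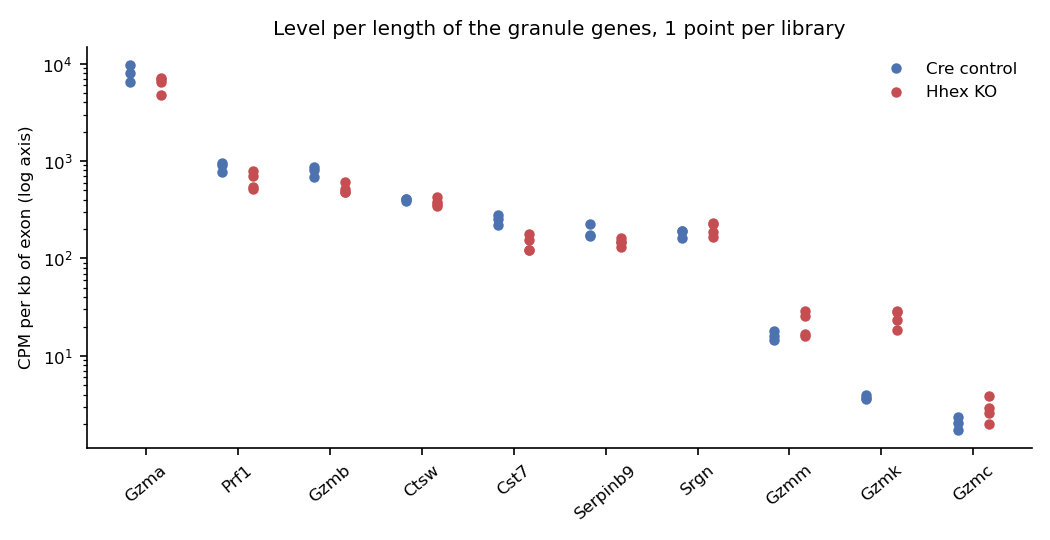
CPM per kb of exon (log axis) of the 10 granule genes, 1 point per library, in Cre control (blue, 3 libraries) and Hhex KO (red, 4 libraries), in the order of the Cre control means. Gzma is highest, and Gzmk moves from about 3.78 CPM per kb in Cre control to 24.7 in Hhex KO.

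Of the 10 genes, 1 rose (Gzmk) and 1 fell (Cst7) in Hhex KO, while 8 did not pass the test. Among all 12161 tested genes 4.56% were called, 2.68% higher and 1.87% lower. The log2 fold changes of the members had a median of -0.22, against 0.02 for all tested genes; 6 lay below 0 and 4 above. In CPM, 4 of the 10 had groups without overlap (Gzmk higher; Gzmb, Cst7 and Serpinb9 lower), against 19.3% of all tested genes (9.37% with Hhex KO higher and 9.98% with Hhex KO lower). In bulk RNA of a sorted population, fewer cells that express a gene and less of its RNA per cell cannot be told apart.

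**Figure D2:**
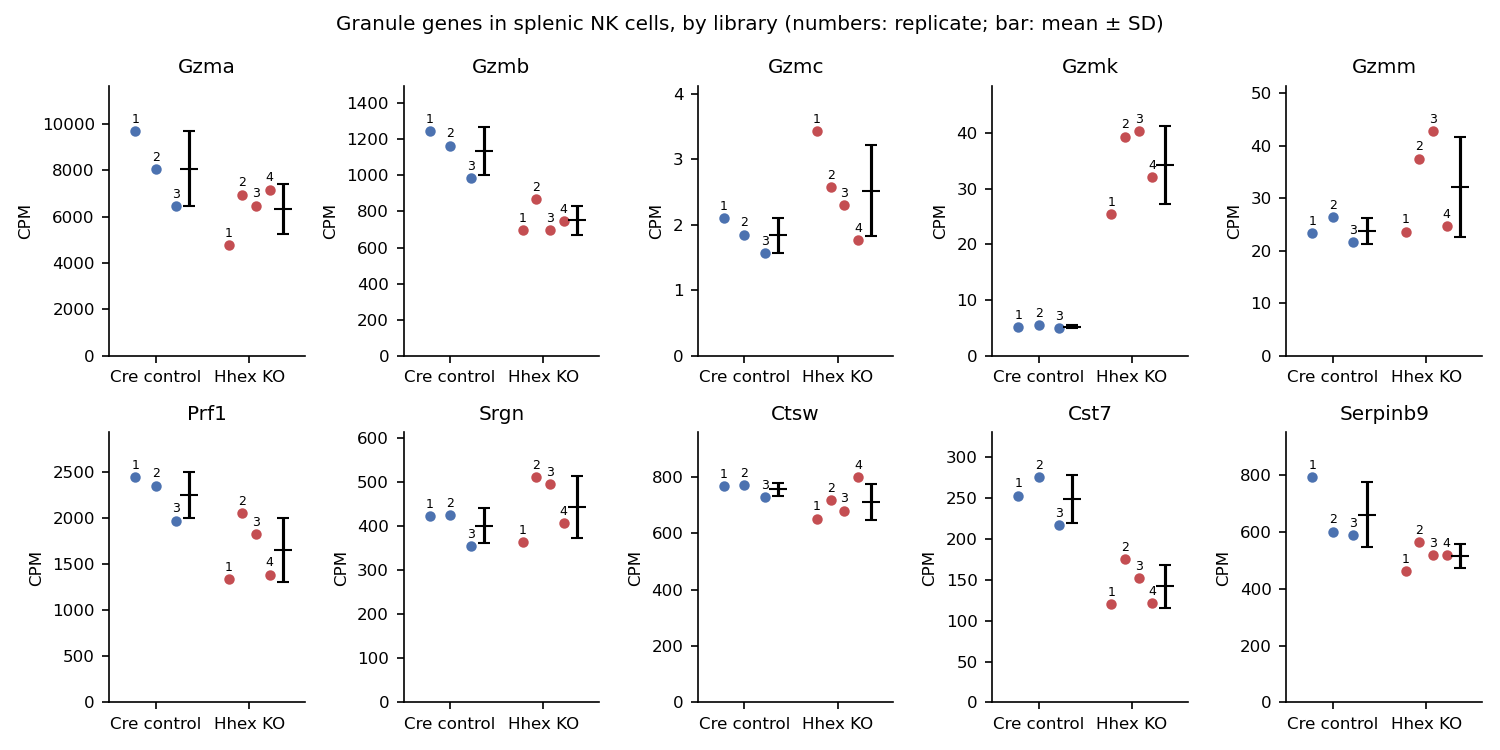
Level of each of the 10 granule genes in CPM (axes start at 0), 1 point per library with its replicate number, and mean ± SD at the right of each group (3 Cre control libraries in blue, 4 Hhex KO libraries in red). Gzmk is at 5.03 to 5.54 CPM in the controls against 25.5 to 40.4 CPM in Hhex KO, and Cst7 at 218 to 276 and 121 to 175 CPM.

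Granzyme K was the granzyme that rose. Gzmk (ENSMUSG00000042385.14, chromosome 13, 113171608 to 113225908, minus strand), a trypsin-like granzyme, was read 69, 63 and 93 times in Cre control replicates 1, 2 and 3, and 393, 687, 685 and 362 times in Hhex KO replicates 1, 2, 3 and 4. This corresponds to 5.17, 5.54 and 5.03 CPM in Cre control and 25.5, 39.4, 40.4 and 32.1 CPM in Hhex KO. The lowest Hhex KO library, replicate 1, lay far above the highest control, and the ratio of the group means was 6.54. The log2 fold change was 2.71 ± 0.20 (adjusted p = 0.000214, edgeR), and the call held in all 16 alternatives, with log2 fold changes of 2.63 to 2.86. The annotated gene holds Esm1 on the opposite strand, which shares no exon base with it and was read 0 to 3 times per library.

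Granzyme A, the neighbour of granzyme K, did not pass the test. Gzma (ENSMUSG00000023132.8, chromosome 13, 113093825 to 113100981, minus strand), also a trypsin-like granzyme, lies 70.6 kb from the annotated Gzmk gene. It was at 9689, 8051 and 6449 CPM in replicates 1, 2 and 3 of the control, and at 4760, 6947, 6475 and 7156 CPM in replicates 1 to 4 of Hhex KO. The control libraries spread as widely as the groups differed, and 3 of the 4 Hhex KO libraries lay within the control range. The difference was -0.35 ± 0.21 on the log2 scale (adjusted p = 0.429), with 0 of 16 alternatives past 0.05.

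Granzyme B lay at the threshold. Gzmb (ENSMUSG00000015437.5, chromosome 14, 56258838 to 56262260, minus strand), which cleaves after aspartate and activates caspases, was at 1245, 1165 and 986 CPM in Cre control and at 696, 867, 696 and 747 CPM in replicates 1 to 4 of Hhex KO. Each Hhex KO library was below each control library. The log2 fold change was -0.59 ± 0.14 and the adjusted p 0.0539. The gene was called lower with RLE scaling (adjusted p = 0.0487), where 1.97% of all genes were lower, and with DESeq2 (0.000573; 3.86% lower). It was also called lower by limma-voom with weights for sample quality (0.0183; 10.9% lower) and by edgeR with the nuclear RNA level as a covariate (0.00685; 7.56% lower). It was not past 0.05 in the other 12 alternatives, among them each of the 7 fits without 1 library (adjusted p 0.0508 to 0.215).

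The remaining granzyme genes of the chromosome 14 locus were hardly read. Gzmc (ENSMUSG00000079186.3, chromosome 14, 56231441 to 56234656, minus strand), a granzyme known from strongly activated lymphocytes, was read 28, 21 and 29 times in Cre control and 53, 45, 39 and 20 times in Hhex KO. That is 1.57 to 2.10 CPM and 1.77 to 3.43 CPM, ranges that overlapped through Hhex KO replicate 4. Its log2 fold change was 0.46 ± 0.30 (adjusted p = 0.473). Gzmd, Gzmf, Gzmg and Gzmn had 0 counts in all 7 libraries and Gzme 1 count in a Cre control library. A count of 0 allows up to 0.163 to 0.283 CPM of the unscaled library total, depending on the library (3 counts, counting error only). Exact stretches of 75 bases, the read length, are shared between Gzmd, Gzme, Gzmg and Gzmn, but 0 of those of Gzmc, or of any other of the 10 genes, occur in transcripts of another gene.

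Granzyme M, which lies apart from both clusters, varied within the Hhex KO group. Gzmm (ENSMUSG00000054206.2, chromosome 10, 79689020 to 79695261, plus strand), which prefers to cleave after methionine or leucine and is typical of NK cells, was at 23.4, 26.4 and 21.6 CPM in Cre control. In Hhex KO it was at 37.6 and 42.8 CPM in replicates 2 and 3 and at 23.6 and 24.7 CPM in replicates 1 and 4, the latter inside the control range. The log2 fold change was 0.44 ± 0.22 (adjusted p = 0.346). It was called higher by limma-voom with weights for sample quality (adjusted p = 0.0169), where 12.6% of all genes were higher, and with the nuclear RNA covariate (0.0459; 8.4% higher). Replicates 1 and 4 are the Hhex KO libraries with the high Malat1 and Neat1 levels, and the part of RNA composition in the level of Gzmm was not tested beyond that covariate.

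Perforin RNA was split along the same libraries. Prf1 (ENSMUSG00000037202.6, chromosome 10, 61297833 to 61304680, plus strand) was at 2440, 2352 and 1971 CPM in Cre control. It was at 1333 and 1387 CPM in Hhex KO replicates 1 and 4 and at 2053 and 1824 CPM in replicates 2 and 3, so that replicate 2 lay inside the control range. Its log2 fold change was -0.45 ± 0.19 (adjusted p = 0.245, edgeR). Of 16 alternatives only edgeR with the nuclear RNA covariate was past 0.05 (-0.50, adjusted p = 0.0178). That covariate was added after seeing the data, and with it 7.56% of all genes were called lower.

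The granule matrix and the protease cathepsin W showed values close to the control range. Srgn, the serglycin core protein gene (ENSMUSG00000020077.14, chromosome 10, 62493833 to 62527451, minus strand), was at 423, 425 and 354 CPM in Cre control and at 363, 510, 495 and 407 CPM in replicates 1 to 4 of Hhex KO. Its log2 fold change was 0.15 ± 0.16 (adjusted p = 0.712). Ctsw, a cathepsin of cytotoxic lymphocytes (ENSMUSG00000024910.4, chromosome 19, 5465043 to 5468507, minus strand), was at 766, 769 and 729 CPM in Cre control and at 651, 717, 679 and 797 CPM in Hhex KO. It had the log2 fold change nearest to 0 of the 10 genes, at -0.09 ± 0.12 (adjusted p = 0.803), and neither gene was past 0.05 in any of 16 alternatives.

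Cystatin F RNA fell. Cst7 (ENSMUSG00000068129.5, chromosome 2, 150570415 to 150578944, plus strand) was at 253, 276 and 218 CPM in replicates 1, 2 and 3 of the control, and at 121, 175, 152 and 121 CPM in replicates 1 to 4 of Hhex KO. The highest Hhex KO library was below the lowest control, and the control mean was 1.75 times that of Hhex KO. The log2 fold change was -0.80 ± 0.16 (adjusted p = 0.0285, edgeR). The call was kept under the 9 alternatives of scaling, filter, test, block and covariate, but was lost in 5 of the 7 fits without 1 library: without Cre control replicates 1, 2 and 3 (adjusted p = 0.111, 0.121 and 0.0720) and without Hhex KO replicates 1 and 3 (0.0549 and 0.0575).

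Serpinb9, the intracellular inhibitor of granzyme B, was lower in every Hhex KO library by a small margin. It (ENSMUSG00000045827.10, chromosome 13, 33003250 to 33017957, plus strand) was at 792, 601 and 588 CPM in Cre control and at 463, 564, 518 and 518 CPM in Hhex KO. The gap between the groups, from 564 to 588 CPM, was small beside the spread of the controls, in which replicate 1 stood above the others. Its log2 fold change was -0.36 ± 0.15 (adjusted p = 0.238), with 0 of 16 alternatives past 0.05.

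Ratios of a pair of genes counted in the same library do not depend on how libraries were scaled. A set of 6 was tested with an exact two-sided permutation test of 4 against 3 libraries, which cannot go below p = 0.0286. The pairs were chosen with earlier results of these data known. Their p-values thus describe how far the groups separate and are not independent evidence of a difference. Gzmk over Gzma was 0.000541 to 0.000788 in Cre control and 0.00449 to 0.00624 in Hhex KO, a difference of 3.02 on the log2 scale (exact permutation p = 0.0286, adjusted over the 6 ratios p = 0.0571). Cst7 over Ctsc, cystatin F against cathepsin C, went from 0.824 to 0.979 in Cre control to 0.510 to 0.600 in Hhex KO, a difference of -0.74 (exact permutation p = 0.0286, adjusted p = 0.0571). Serpinb9 over Gzmb, the inhibitor against its protease, was 0.516 to 0.636 in Cre control and 0.650 to 0.745 in Hhex KO, a difference of 0.24 (exact permutation p = 0.0286, adjusted p = 0.0571). These 3 reached the smallest p the design allows, with all 7 libraries on their group's side, and were not past 0.05 after adjustment. With 10 counts added in place of 1, the adjusted p was 0.0429 for these 3 and for Gzmc over Gzmb. The exact permutation p of the 3 cannot fall below 0.0286. Their lower adjusted p thus came from the adjustment over the 6 ratios, not from a clearer separation of the groups.

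The other ratios differed less clearly. Gzmc over Gzmb differed by 1.00 on the log2 scale with groups that did not overlap (exact permutation p = 0.0571, adjusted p = 0.0857). Gzmb over Gzma overlapped, with a difference of -0.24 (exact permutation p = 0.143, adjusted p = 0.171), so that a larger change of granzyme B than of granzyme A was not shown. Prf1 over Gzma also overlapped, with a difference of -0.12 (exact permutation p = 0.714, adjusted p = 0.714); without Hhex KO replicate 4 the difference was 0.02.

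**Figure D3:**
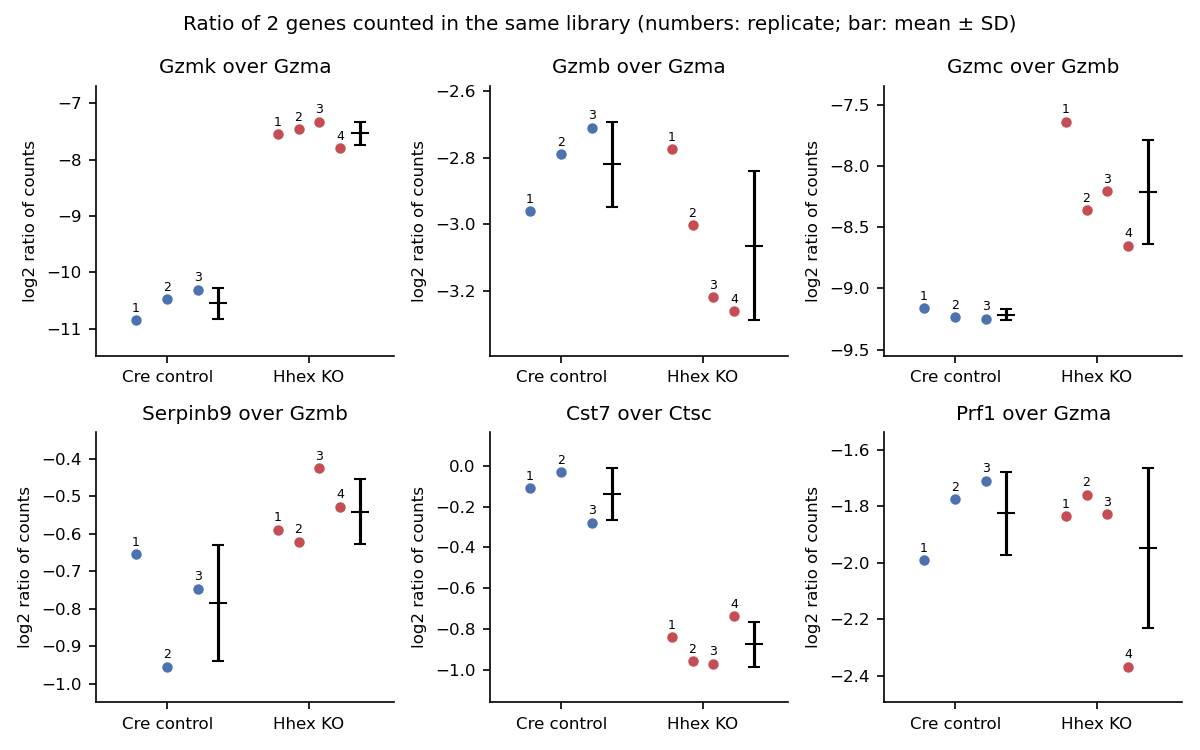
Log2 ratio of the counts of 2 genes in each library (1 count added to each), with replicate numbers and mean ± SD, for 3 Cre control libraries (blue) and 4 Hhex KO libraries (red). The groups are separate for Gzmk over Gzma, Gzmc over Gzmb, Serpinb9 over Gzmb and Cst7 over Ctsc, and overlap for Gzmb over Gzma and Prf1 over Gzma.

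The other genes of the granule pathway were read from a list of 47, of which 40 passed the filter on low counts. Of these 40, 3 rose, 2 fell and 35 did not pass, 12.5% called against 4.56% of all genes, with a median log2 fold change of 0.05 against 0.02. Among 9 tested cathepsins and related proteases, Ctss, the lysosomal protease cathepsin S, rose by 1.35 ± 0.20 on the log2 scale (adjusted p = 0.00874), from 45.6 ± 8.96 CPM in the controls (SD, n = 3) to 116 ± 25.3 CPM (SD, n = 4). Ctsc, the activator of progranzymes, was at 273 ± 8.70 CPM in Cre control (SD, n = 3) and 264 ± 66.2 CPM in Hhex KO (SD, n = 4), a difference of -0.04 ± 0.19 on the log2 scale. Ctsd, the abundant aspartic protease cathepsin D, was at 1108 ± 76.7 CPM (SD, n = 3) and 968 ± 162 CPM (SD, n = 4), a difference of -0.20 ± 0.16 on the log2 scale (adjusted p = 0.594). The call of Ctss was lost without Cre control replicate 1 (adjusted p = 0.0539) and without Cre control replicate 3 (0.0582). Ctss is also known from B cells and myeloid cells. Of 6 B cell markers 3 were tested and Cd79b was called higher (log2 fold change 1.90, adjusted p = 0.0292), with a summed level, mostly Ighm, of 211 to 256 CPM in the controls against 240 to 404 CPM in Hhex KO. Of 6 monocyte and macrophage markers 4 were tested and 0 were called, at a summed 33.2 to 110 CPM in the controls against 6.47 to 232 CPM in Hhex KO. The part of such cells in the level of Ctss was not tested.

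Of 8 tested protease inhibitors, 1 rose, 1 fell and 6 did not pass, with a median log2 fold change of 0.04; of all genes 2.68% were called higher and 1.87% lower. Serpinb9b, a close relative beside Serpinb9 on chromosome 13, fell by 0.96 ± 0.17 on the log2 scale (adjusted p = 0.0165; 3.41% of its 75-base stretches also occur in Gm36099), from 142, 131 and 118 CPM in Cre control to 51.0, 85.0, 62.8 and 68.3 CPM in Hhex KO. Its call was lost without Cre control replicates 1, 2 and 3 (adjusted p = 0.0840, 0.0647 and 0.0571). Serpinb1a, an inhibitor of neutrophil-type proteases, was at 2.02 to 2.17 CPM in the controls against 5.05 to 11.8 CPM in Hhex KO, a difference of 1.79 ± 0.33 on the log2 scale (adjusted p = 0.0198). Its highest library was Hhex KO replicate 2, which also held the most neutrophil marker RNA. Without that library the log2 fold change was 1.46 and the call held. The call was lost without Cre control replicates 1, 2 and 3 (adjusted p = 0.0925, 0.0784 and 0.100, edgeR). The part of neutrophils in the level of Serpinb1a was not tested.

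Of 14 genes of granule membrane, sorting and biogenesis, 1 fell (7.14%) and 13 did not pass, where 1.87% of all tested genes were called lower. The lower gene was Gnptg, a subunit of the phosphotransferase that prepares the mannose 6-phosphate tag by which granzymes are sorted. It was at 96.8, 96.4 and 86.2 CPM in Cre control and at 43.4, 48.5, 46.2 and 52.8 CPM in Hhex KO, a difference of -0.97 ± 0.11 on the log2 scale (adjusted p = 0.00215), and the call held in all 16 alternatives. Unkl on the opposite strand covers 49.5% of its exon bases and did not pass the test (log2 fold change -0.11), and whether counting used the strand is not stated in the sources used here. The catalytic partner gene Gnptab (0.43 ± 0.17, adjusted p = 0.206), the perforin chaperone gene Calr (0.05 ± 0.25) and the granule membrane gene Nkg7 (0.05 ± 0.18) had these log2 fold changes and did not pass.

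Of 9 tested genes that build the sugar chains of serglycin, 1 rose (11.1%), where 2.68% of all tested genes were called higher. Chst15, a sulfotransferase of chondroitin sulfate, was low in both groups, at 0.974 to 3.17 CPM in the controls against 4.16 to 9.48 CPM in Hhex KO, a difference of 1.94 ± 0.44 on the log2 scale (adjusted p = 0.0409). Its call was lost without Cre control replicates 1 and 3 (adjusted p = 0.159 and 0.188) and without Hhex KO replicates 1, 2 and 3 (0.0886, 0.0623 and 0.0932). The abundant chondroitin synthase gene Chsy1 was at 1308 ± 42.0 CPM in Cre control (SD, n = 3) and 909 ± 193 CPM in Hhex KO (SD, n = 4), a difference of -0.52 ± 0.18 on the log2 scale that did not pass (adjusted p = 0.159).

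**Figure D4:**
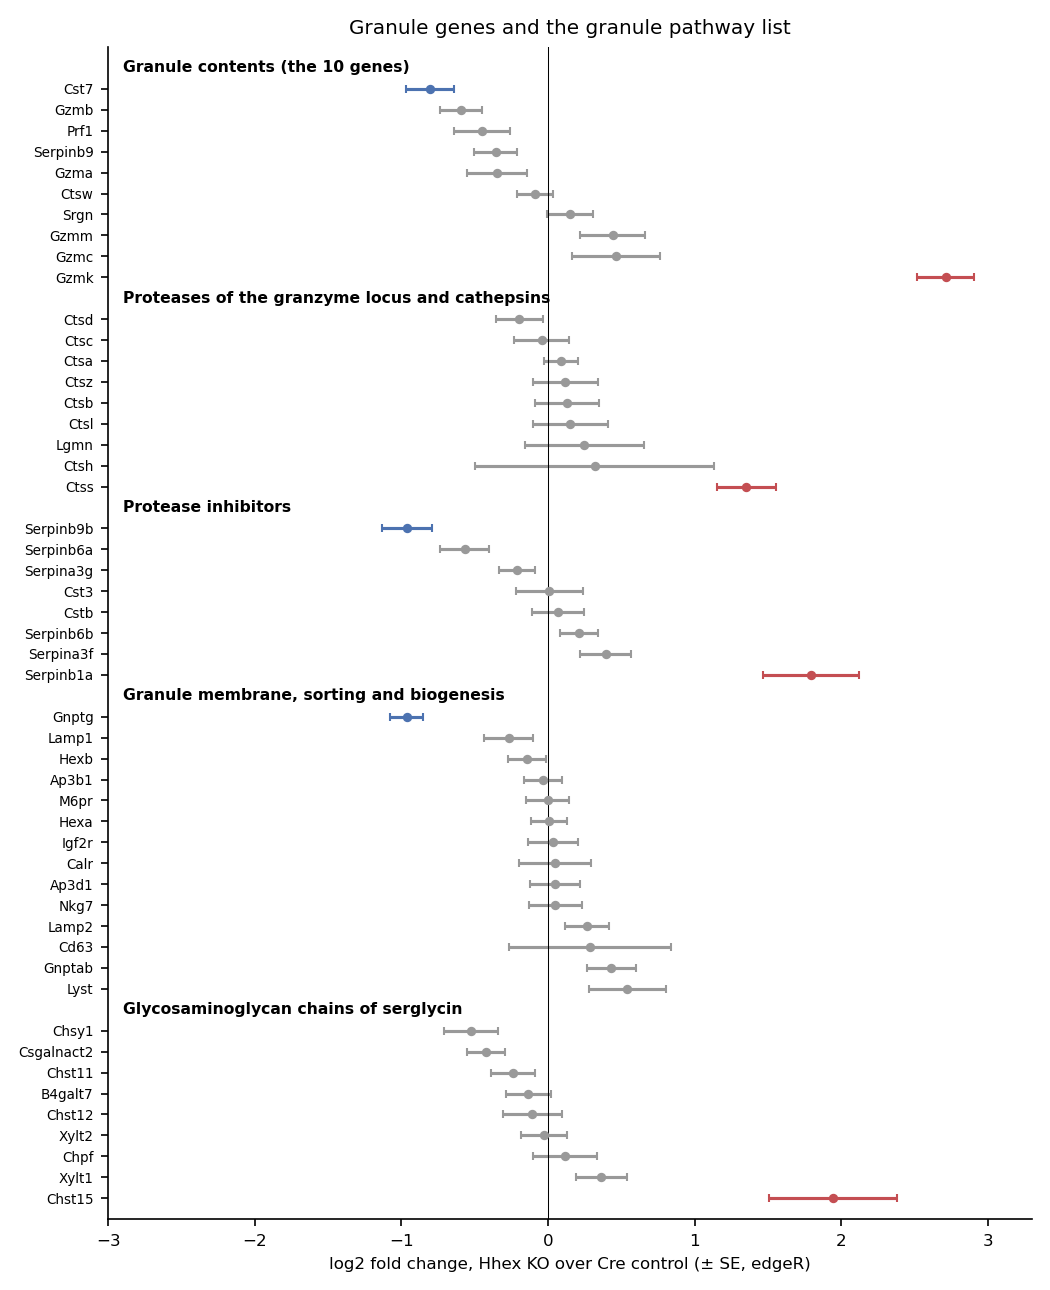
Log2 fold change (Hhex KO over Cre control, ± SE from edgeR) of the 10 granule genes and the 40 tested genes of the granule pathway list, in groups. Red marks genes called higher, blue genes called lower and grey genes that did not pass an adjusted p of 0.05; Gzmk lies at 2.71 and Cst7 at -0.80, apart from most of the other points near 0.

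The genes whose pattern lay nearest to that of a called member were taken by the root mean square difference of log2 CPM, set to the control mean, over the 7 libraries among 12140 genes. For Gzmk they were Gm44075 (0.24), Tlr6 (0.27), a Toll-like receptor gene, and Gm15947 (0.33). Tlr6 went from 3.13 to 3.75 CPM in Cre control to 16.8 to 31.9 CPM in Hhex KO. Gm44075 and Gm15947 had 0 counts in all 3 control libraries and 7 to 20 counts in Hhex KO, so that their nearness rests on the prior count of 2 used for log2 CPM. For Cst7 they were Arl3 (0.10), a small GTPase gene, Cd9 (0.12), a tetraspanin gene, and Gp1bb (0.12), of whose exon bases 91.1% are shared with Sept5, so that its counts are uncertain. Cd9 was at 297 to 409 CPM in the controls against 167 to 244 CPM in Hhex KO.

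Markers of other cells were measured beside these genes. All 8 markers of type 1 innate lymphoid cells (ILC1; Cxcr6, Itga1, Il7r, Tnfsf10, Tmem176a, Tmem176b, Cd200r1 and Inpp4b) were called higher, where 2.68% of all tested genes were. Their summed level was 92.9 to 118 CPM in the controls against 491 to 665 CPM in Hhex KO. The part of such cells in the rise of Gzmk was not tested. The sort required CD49b, which ILC1 generally lack. The CD49b gene Itga2 was at 380 to 543 CPM in the controls against 423 to 512 CPM in Hhex KO. A level in bulk RNA cannot show whether a minor share of the cells differed in CD49b. Of 8 genes of dividing cells 4 were called higher, against the same 2.68% of all tested genes. They summed to 61.2 to 168 CPM in the controls against 223 to 608 CPM in Hhex KO. Of 8 T cell markers 5 were tested and 0 were called. The 8 summed to 54.5 to 82.1 CPM in the controls against 76.9 to 148 CPM in Hhex KO. Log2 fold changes of the tested markers were 0.87, 0.97, 0.72, 1.04 and 0.49 for Cd3e, Cd3d, Cd3g, Cd5 and Trac. Cd4, Cd8a and Cd8b1 were not tested, and Cd8a and Cd8b1 were at or below 0.5 CPM in every library. The part of T cells in the rise of Gzmk was not tested. Of 8 mast cell and basophil markers 1 was tested and 0 were called, with Tpsb2 and Tpsab1 at 0 counts in all libraries. All 7 erythroid and platelet markers were tested and 0 were called. They summed to 22.3 to 33.7 CPM in the controls against 4.07 to 51.6 CPM in Hhex KO. The log2 fold changes were -1.36, -1.33 and -1.64 for the platelet genes Ppbp, Pf4 and Gp9. They were 0.49, -0.10, 0.19 and 0.82 for Hbb-bs, Hbb-bt, Hba-a1 and Alas2. The part of platelets in the levels of Cd9 and Gp1bb was not tested. Early response genes (Fos, Fosb, Jun, Junb, Egr1 and Ier2), which respond to handling as well as to stimulation, summed to 4923 to 6781 CPM in the controls against 430 to 2960 CPM in Hhex KO, with 0 of 6 called. That summed level was lower in each Hhex KO library than in each control library. The part of cell handling in the lower levels of Gzmb and Cst7 was not tested.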

How the data were processed

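The data are bulk RNA-seq of sorted splenic NK cells, 4 Hhex KO and 3 Cre control libraries, with a directional kit and single-end reads of 75 bp, per the labels' protocols. The authors deposited raw counts per gene, without normalization. STAR, featureCounts and mm10 are named in the submitters' processing notes; for versions, annotation release and strand setting, nothing is given in the sources used here. Columns were matched to samples by their descriptions in the labels. No row was without a gene. Coordinates and exon lengths are from GENCODE M21 (GRCm38), and 99.8% of identifiers matched it with the version number dropped.

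Counts were tested with edgeR 4.0.16 (R 4.3.3): expression filter by group (minimum count 10, total 15), TMM scaling, robust quasi-likelihood F test, no covariate. On simulated counts with known changes, this procedure recovered 7 of 71 genes changed 1.5-fold, 32 of 68 changed 2-fold and 52 of 61 changed 4-fold. Of the simulated calls 6.19% were false. Most changes of 1.5-fold were thus missed, and a gene that did not pass is not shown to be unchanged. CPM use the TMM-scaled library size, and CPM per kb the union of annotated exons. Alternatives were other scalings (RLE, upper-quartile), filters (none, or 10 CPM in 3 libraries) and tests (DESeq2 1.42.0; limma-voom 3.58.1, also with weights for sample quality), a replicate block, and leaving out each library; the nuclear RNA covariate was added after seeing the data.

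Replicate libraries differed by more than sampling noise (chi-square per degree of freedom 10.4 to 71.5). The labels do not tie libraries to separate animals, so p-values measure the spread between these libraries, which may be technical. The members, ratios and lists were chosen with earlier results of these data known. All 10 members are named, with every called gene of the pathway list, its 4 genes with the highest mean level (Nkg7, Chsy1, Ctsd and Calr), and the 3 nearest patterns to each called member. Ctsc and Gnptab were named for their role, after their values were seen.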

Additional observations from a re-analysis of the deposited data

Results flagged for a closer look

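Among 29 values examined in the 4 Hhex KO libraries, 1 had a library far from the others. The log2 ratio of Prf1 over Gzma was -2.37 in Hhex KO replicate 4 and -1.84 to -1.76 in the other Hhex KO libraries, whose sample numbers in the labels are 26 to 28 where that of replicate 4 is 95. The gap between replicate 4 and the nearest of the others was 0.873 of the whole range, above Dixon's 95% critical value for 4 libraries. Chance marks about 1 in 20 such groups.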

How the results depend on the processing

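The call of Gzmk and that of Gnptg held in all 16 alternatives, and 0 of the 10 granule genes changed direction in any alternative in which it was tested. Members called lower were 1, and 2 with RLE scaling and with DESeq2, 2 (beside 2 higher) with weighted limma-voom, and 3 (beside 2 higher) with the nuclear RNA covariate. Over all genes 326 were higher and 228 lower, with 186 higher under the stricter filter, 625 and 469 with DESeq2, 1534 and 1325 with weighted limma-voom, and 1022 and 919 with the nuclear RNA covariate. The pathway list had 3 higher and 2 lower, with 1 higher under the stricter filter, which tests fewer genes, and 4, 5 and 6 lower with DESeq2, weighted limma-voom and the nuclear RNA covariate; the cause was not tested in the other cases.

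Calls over all genes, 554 in all, were 141, 235 and 152 without Cre control replicates 1, 2 and 3 and 297 without Hhex KO replicate 3; without Hhex KO replicate 4 the higher calls were 527. Leaving out 1 library gave 91 to 527 higher and 50 to 291 lower genes in all, 1 higher and 0 to 1 lower members, and 0 to 3 higher and 1 to 3 lower genes of the pathway list. The log2 differences of the ratios were then 2.86 to 3.13 for Gzmk over Gzma, -0.34 to -0.18 for Gzmb over Gzma, 0.81 to 1.15 for Gzmc over Gzmb, 0.16 to 0.31 for Serpinb9 over Gzmb, -0.81 to -0.68 for Cst7 over Ctsc and -0.20 to 0.02 for Prf1 over Gzma; with fewer libraries the exact test cannot pass 0.05 after adjustment. With 10 counts added in place of 1, the adjusted p was 0.0429 for Gzmk over Gzma (2.88), Gzmc over Gzmb (0.90), Serpinb9 over Gzmb (0.24) and Cst7 over Ctsc (-0.73). All of these but Gzmc over Gzmb were already at the smallest exact p, so their lower adjusted p came from the adjustment alone. The share of counts in the members was 1.02% to 1.12% in Hhex KO and 1.24% to 1.45% in Cre control without 1 library.

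The correlation of deviations from the group means was 0.147, 0.566 and -0.0819 for same-numbered libraries 1, 2 and 3. Between differently numbered libraries it was -0.385 to 0.412. So few libraries do not settle whether the numbers pair the samples. With the replicate number as a block, on the 6 libraries numbered 1 to 3, 499 genes were higher and 275 lower, and Gzmk (adjusted p = 0.00245) and Cst7 (0.0276) stayed called. Within the 3 same-numbered pairs the log2 difference of Prf1 over Gzma was 0.0174. Gzmc, Serpinb1a and Chst15 had few counts, and the effect of depth on their results was not tested.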
